A study of Oryctolagus cuniculus with 20 samples.

Results

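PPIG, RBM25, ESF1 and NCL encode nuclear proteins that act on RNA, and their transcripts were followed across the tricuspid valves (TV) of rabbits given serotonin, pergolide or dexfenfluramine. They are 4 of the 23669 genes in the counts, and all 4 were among the 8683 genes that passed a filter on low counts. They were selected from these valves for a higher level after serotonin and a lower level after each drug, so their differences from non-treated valves and between serotonin and the drugs are given as a description, without p-values. The identifiers are ENSOCUG00000011084 for PPIG, ENSOCUG00000013737 for RBM25, ENSOCUG00000005414 for ESF1 and ENSOCUG00000004312 for NCL.

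The animals were female New Zealand white rabbits of 8 weeks of age, and whole valves were collected after 16 weeks. A group of 5 rabbits received serotonin at 80 mg/kg per day, a group of 5 received pergolide at 0.5 mg/kg per day, and a group of 5 received dexfenfluramine at 20 mg/kg per day, all in drinking water. These doses are those of the sample labels and the study's methods, and its results text names another dose of dexfenfluramine. A further 5 rabbits drank water alone and are called non-treated. Pergolide is an ergot-derived dopamine receptor agonist and dexfenfluramine an appetite suppressant, both known for drug-induced valve disease.

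Messenger RNA precursors are spliced by the spliceosome with the help of proteins rich in arginine and serine (SR proteins), which gather in nuclear speckles. PPIG (cyclophilin G) is a peptidyl-prolyl isomerase of the speckles with an arginine- and serine-rich tail, and RBM25 is a splicing regulator that contacts the U1 small nuclear ribonucleoprotein (snRNP) through LUC7L3. Ribosomes are assembled in the nucleolus, where ESF1 takes part in the processing of ribosomal RNA for the small subunit, and where NCL (nucleolin), an abundant phosphoprotein, takes part in the transcription and processing of ribosomal RNA.

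The counts of a valve summed to between 3247091 and 5921025. Levels are given in CPM (the count scaled to a common library size) after normalization by the trimmed mean of M-values (TMM), which scales each valve so that the bulk of its genes match the other valves. The most abundant gene, ENSOCUG00000029084, made up 40.7% ± 7.39 of all counts in non-treated valves and 29.1% ± 5.65 after dexfenfluramine (SD, n = 5). The TMM factors rose with the groups, from a median of 0.79 in non-treated valves to 1.23 after dexfenfluramine, and non-treated replicate 3 (1.25) and dexfenfluramine replicate 3 (1.72) stood apart from the other valves of their groups. Without those 2 valves the log2 changes of the 4 genes differed little, being 0.44 to 0.58 with serotonin, -0.60 to -0.37 with pergolide and -0.66 to -0.33 with dexfenfluramine.

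The 4 transcripts had the same order of groups. Each had its highest mean after serotonin, an intermediate mean in non-treated valves and lower means after both drugs. After TMM normalization, all valves of both drug groups were below all non-treated and all serotonin-treated valves for each of the 4 genes, whereas the drug groups overlapped each other. Of all tested genes, 8.34% had every pergolide-treated valve below every non-treated valve and 8.71% every dexfenfluramine-treated valve. Against the serotonin-treated valves these shares were 11.9% and 12.2%, and since the genes were chosen for this pattern nothing is read from the count. With counts relative to the total count instead, PPIG and RBM25 were no longer lower after pergolide than in non-treated valves, and none of the 4 was lower after dexfenfluramine. Relative to the total count without the single most abundant gene, mean ESF1 and NCL were again lower after both drugs than in non-treated valves, PPIG and RBM25 were slightly lower after pergolide, and both were higher after dexfenfluramine. Because whole valves were sequenced, fewer cells of a type and less RNA per cell cannot be told apart.

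**Figure D1:**
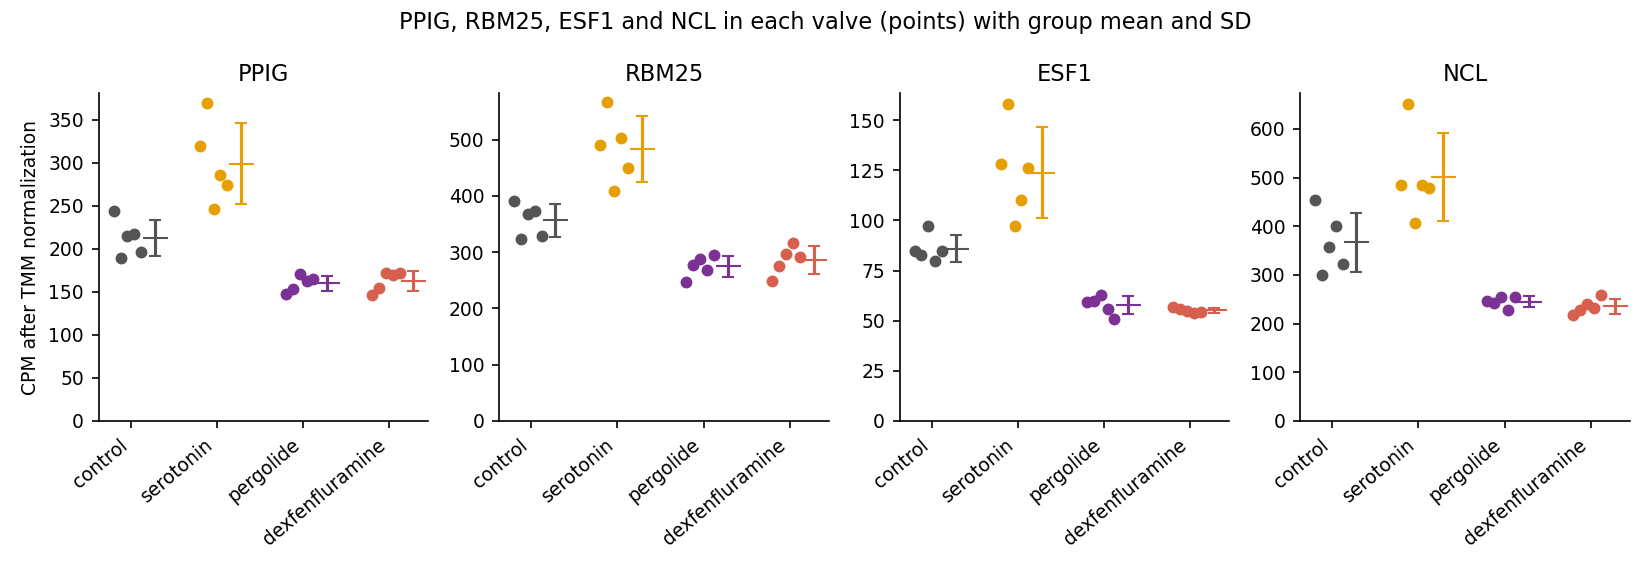
Levels of PPIG, RBM25, ESF1 and NCL in CPM after TMM normalization (vertical axes, from 0) in the 5 valves of each group. Points are valves, and the bar beside them is the group mean with its SD. Serotonin means lie highest and both drug groups lowest for each gene, with serotonin replicate 2 the highest valve of all. For ESF1 and NCL, serotonin replicate 3 lies below the highest non-treated valve.

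Of the splicing factors, PPIG was measured at 243, 189, 215, 218 and 197 CPM in non-treated replicates 1 to 5 and at 319, 369, 246, 286 and 274 CPM in the serotonin-treated replicates. After pergolide PPIG was at 148, 153, 170.5, 163 and 165 CPM, and after dexfenfluramine at 146, 154, 172, 169 and 171 CPM. No serotonin-treated valve overlapped a non-treated one, although the lowest of them was close to the highest non-treated valve. The means were 212 ± 21.1 CPM in non-treated, 299 ± 47.3 CPM in serotonin-treated, 159.9 ± 9.09 CPM in pergolide-treated and 162 ± 11.7 CPM in dexfenfluramine-treated valves (SD, n = 5). PPIG was thus 1.41-fold higher after serotonin, a log2 change of 0.49 ± 0.10 (SE), and its log2 change was -0.41 ± 0.10 after pergolide and -0.39 ± 0.10 after dexfenfluramine.

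RBM25 was measured at 390.3, 324, 368, 372 and 329 CPM in the non-treated replicates and at 490.4, 566, 409.7, 503 and 450.0 CPM after serotonin. Its values were 247, 277, 288, 268 and 295 CPM after pergolide and 249, 276, 297, 316 and 291 CPM after dexfenfluramine. All serotonin-treated valves were again above all non-treated valves, and in this fit RBM25 had the smallest differences of the 4 genes from non-treated valves. Group means were 357 ± 28.9, 484 ± 58.8, 275 ± 18.6 and 286 ± 24.8 CPM in non-treated, serotonin, pergolide and dexfenfluramine valves (SD, n = 5). The log2 changes of RBM25 against non-treated valves were 0.44 ± 0.09 after serotonin, -0.37 ± 0.09 after pergolide and -0.32 ± 0.09 after dexfenfluramine (SE).

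Of the nucleolar factors, ESF1 was measured at 84.8, 82.6, 97.4, 79.7 and 84.7 CPM in the non-treated replicates and at 128, 158, 97.0, 110.2 and 126 CPM after serotonin. Pergolide-treated valves held 59.2, 59.8, 62.6, 55.9 and 50.9 CPM of ESF1 and dexfenfluramine-treated valves 56.6, 56.0, 54.9, 53.9 and 54.3 CPM. Serotonin replicate 3 lay just under non-treated replicate 3, and the other 4 serotonin-treated valves lay above all non-treated valves. The spread of ESF1 was smallest after dexfenfluramine (55.1 ± 1.14 CPM) and largest after serotonin (124 ± 22.9 CPM), with 85.8 ± 6.79 CPM in non-treated and 57.7 ± 4.48 CPM in pergolide-treated valves (SD, n = 5). Its log2 changes were 0.53 ± 0.10 after serotonin, the largest of the 4 in this fit, -0.58 ± 0.10 after pergolide and -0.64 ± 0.10 after dexfenfluramine (SE).

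NCL was measured at 453, 301, 357, 399.8 and 323 CPM in the non-treated replicates and at 485, 651, 407, 484 and 479 CPM after serotonin. After pergolide its values were 247, 243, 254, 228 and 255 CPM, and after dexfenfluramine 219, 228, 239, 233 and 259.7 CPM. NCL had the widest spread among non-treated valves, and serotonin replicate 3 lay below non-treated replicate 1. Means of NCL were 367 ± 61.0 CPM in non-treated, 501 ± 89.9 CPM in serotonin-treated, 245 ± 11.1 CPM in pergolide-treated and 236 ± 15.4 CPM in dexfenfluramine-treated valves (SD, n = 5). The log2 changes of NCL were 0.45 ± 0.11 after serotonin, -0.58 ± 0.11 after pergolide and -0.64 ± 0.11 after dexfenfluramine (SE).

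In absolute numbers of reads the 4 genes were well covered. A valve held 675 to 1370 reads of PPIG, 1082 to 2105 of RBM25, 235 to 555 of ESF1 and 1016 to 2082 of NCL. Beyond counting error, edgeR estimated a coefficient of variation between rabbits of one group of 11.7% for PPIG, 11.2% for RBM25, 11.4% for ESF1 and 13.6% for NCL, where genes of like abundance had 16.6% to 18.0%. In the RefSeq annotation of the assembly mOryCun1.1, 3 small nucleolar RNA (snoRNA) genes lie within NCL, and a read that overlaps 2 genes is not counted in HTSeq's union mode. No annotated gene overlaps PPIG, RBM25 or ESF1 there.

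The serotonin rise and the direction under each drug were then set side by side. Of the 4 genes, 3 were past an adjusted p of 0.05 (edgeR's quasi-likelihood test, adjusted by the Benjamini-Hochberg method over all tested genes) as higher after serotonin, with NCL just outside, where 1.04% of all tested genes were called higher. All 4 passed as lower after pergolide, where 12.7% of all genes were called lower, and after dexfenfluramine, where 15.4% were. Directly between treatments, all 4 were called lower after pergolide than after serotonin (15.1% of all genes) and lower after dexfenfluramine than after serotonin (16.4% of all genes). With counts relative to the total count 2 of the 4, ESF1 and NCL, were called in each of these direct comparisons, and PPIG and RBM25 were not. Counted by overlap instead, 2.05% of all genes had every serotonin-treated valve above every non-treated valve, as PPIG and RBM25 had. The genes were chosen on these contrasts, so their calls, against non-treated valves and directly between treatments, test nothing about them. The shares are given as background only. Calls after serotonin rested on single valves, since 0 of the 4 genes passed without non-treated replicate 2, 4 or 5 or without serotonin replicate 1 or 2. In fits without each drug-treated or non-treated valve all 4 passed after both drugs, and with the surrogate variables of svaseq in limma-voom 2 of the 4 passed after each drug.

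Set directly against serotonin, both drugs gave wider differences with TMM, which use the same drug-treated valves as the comparisons above. PPIG was at 0.54 times its serotonin level after pergolide (log2 difference -0.90 ± 0.10, SE) and RBM25 at 0.57 times (-0.81 ± 0.09). ESF1 was at 0.47 times (-1.10 ± 0.10) and NCL at 0.49 times (-1.03 ± 0.11). In these estimates ESF1 and NCL were further below their serotonin level under pergolide than PPIG and RBM25. PPIG and NCL were close beside their SE. Their log2 ratio within a valve overlapped between serotonin (-0.82 to -0.60) and pergolide (-0.74 to -0.48). Under dexfenfluramine the log2 differences from serotonin were -0.88 ± 0.10 for PPIG, -0.76 ± 0.09 for RBM25, -1.17 ± 0.10 for ESF1 and -1.09 ± 0.11 for NCL (SE). Relative to the total count, PPIG, RBM25, ESF1 and NCL kept the sign at smaller sizes, namely -0.57, -0.48, -0.78 and -0.69 for pergolide and -0.31, -0.19, -0.60 and -0.51 for dexfenfluramine.

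The sign of the drug changes depended on how the counts were scaled. Scaling by the total count moves all genes by about the same amount. Which of the 4 turned sign thus follows from how far each lay below 0. With counts relative to the total count of the tested genes, an alternative added after the TMM factors had been seen, the median log2 change of all tested genes was 0.13 after serotonin, 0.46 after pergolide and 0.70 after dexfenfluramine, against 0.01, 0.02 and 0.03 after TMM normalization. On that scale the log2 changes of PPIG, RBM25, ESF1 and NCL were 0.04, 0.07, -0.17 and -0.12 after pergolide and 0.30, 0.36, 0.01 and 0.06 after dexfenfluramine, and none of the 4 passed the threshold against non-treated valves. After serotonin they were 0.61, 0.55, 0.61 and 0.57, as high as with TMM or higher. Relative to the median gene of the same scaling, the drug changes were alike on both scales, which follows from a scaling that moves all genes together. For PPIG, RBM25, ESF1 and NCL they were -0.42, -0.39, -0.63 and -0.58 after pergolide and -0.40, -0.34, -0.69 and -0.64 after dexfenfluramine with total counts. With TMM these distances from the median gene were -0.43, -0.40, -0.60 and -0.60 after pergolide and -0.42, -0.35, -0.67 and -0.67 after dexfenfluramine.

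With the total count without the most abundant gene, the drug means relative to the non-treated mean lay between those of TMM and of total counts. The values are group means with no fit. ESF1 was at 118 ± 31.5 CPM in non-treated, 169.6 ± 25.8 in serotonin-treated, 95.1 ± 4.48 in pergolide-treated and 101 ± 10.9 in dexfenfluramine-treated valves (SD, n = 5). NCL was at 492 ± 81.3, 683 ± 63.2, 406 ± 38.8 and 431 ± 49.4 in the same order. PPIG was at 287 ± 51.1, 409.5 ± 54.1, 265 ± 34.1 and 298 ± 42.5, and RBM25 at 483 ± 89.7, 663 ± 62.0, 456 ± 60.3 and 524 ± 78.2. On this scale ESF1 and NCL thus had lower means after both drugs, as with TMM, and PPIG and RBM25 had means within 1 SD of the non-treated valves. Both drug means of ESF1 and the dexfenfluramine mean of NCL were also within 1 SD of the non-treated valves.

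**Figure D2:**
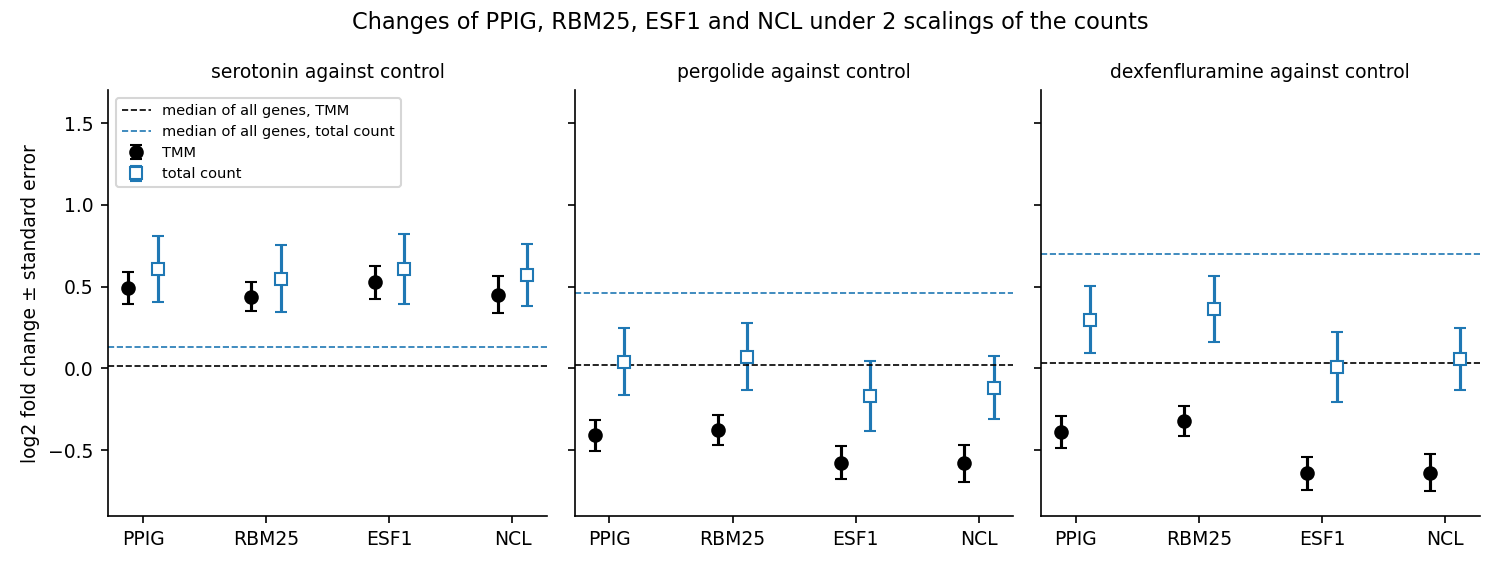
Log2 fold change against non-treated valves with its standard error (vertical axis) for the 4 genes, after TMM normalization (filled points) and with total counts (open squares). Dashed lines are the median of all tested genes on each scale. After both drugs the 4 genes lie below the median line of their own scale, but with total counts only ESF1 and NCL after pergolide lie under 0.

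Between pergolide and dexfenfluramine the 4 genes were at like levels with TMM, and since a lower level under both drugs was part of their choice, this is again a description. The log2 difference of dexfenfluramine from pergolide was 0.02 for PPIG (95% interval of edgeR's fit -0.18 to 0.22), 0.06 for RBM25 (-0.13 to 0.24), -0.06 for ESF1 (-0.27 to 0.15) and -0.06 for NCL (-0.29 to 0.18). With TMM, differences beyond about 0.29 on the log2 scale in either direction thus lay outside the 4 intervals. With total counts the differences were 0.26, 0.29, 0.18 and 0.17 in the same order, where the median gene was at 0.23. Of all 8683 genes 0.0% were called between the drugs by edgeR, 613 genes had an unadjusted p under 0.05, DESeq2 called 4 genes and limma-voom 0.

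Ratios of the 4 genes within a valve do not depend on how the valves are scaled. The log2 ratio of RBM25 to NCL counts was -0.22, 0.11, 0.04, -0.10 and 0.02 in the non-treated replicates and 0.02, -0.20, 0.01, 0.05 and -0.09 after serotonin. It was 0.00, 0.19, 0.18, 0.24 and 0.21 after pergolide, and 0.19, 0.28, 0.31, 0.44 and 0.16 after dexfenfluramine. All dexfenfluramine-treated valves and 4 of 5 pergolide-treated valves thus held more RBM25 relative to NCL than any non-treated or serotonin-treated valve. With TMM, RBM25 had the smallest drug changes of the 4 genes and NCL was among the largest. How many pairs of genes separate as well was not computed, so nothing is read from this count. The means of this ratio were -0.03 ± 0.13 in non-treated, -0.04 ± 0.10 in serotonin-treated, 0.16 ± 0.09 in pergolide-treated and 0.28 ± 0.11 in dexfenfluramine-treated valves (SD, n = 5).

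In the other pairs of a splicing and a nucleolar factor the means moved the same way, but the groups overlapped more. The mean log2 ratio of PPIG to NCL was -0.78 in non-treated, -0.74 in serotonin-treated, -0.62 in pergolide-treated and -0.54 in dexfenfluramine-treated valves. That of RBM25 to ESF1 was 2.05, 1.98, 2.25 and 2.37, and that of PPIG to ESF1 was 1.31, 1.28, 1.47 and 1.56 in the same order of groups. All dexfenfluramine-treated valves lay above all non-treated valves for PPIG to NCL (-0.60 to -0.46 against -0.90 to -0.67). For RBM25 to ESF1 the dexfenfluramine-treated valves (2.14 to 2.55) overlapped the non-treated ones (1.92 to 2.22). For PPIG to ESF1 so did the pergolide-treated (1.32 to 1.698) and dexfenfluramine-treated valves (1.37 to 1.66), with 1.14 to 1.52 in non-treated valves. Within each class the mean ratios moved little. PPIG to RBM25 had means of -0.75, -0.70, -0.78 and -0.81, and ESF1 to NCL had means of -2.08, -2.02, -2.09 and -2.09. The ratios carry no test, since they are made from the levels on which the genes were chosen. For the same reason nothing is read from which pairs overlapped.

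Valves of one group also differed from each other, which the choice of genes did not use. For each gene the deviation of a valve's log2 CPM from its group mean was taken, and deviations of the 20 valves were correlated for the 6 pairs of genes. PPIG and RBM25 deviated together (Pearson's r = 0.91, permutation within groups, p = 1e-05, the smallest that 100000 permutations can give, adjusted p = 6e-05, Spearman's rho = 0.85, adjusted p = 0.00012). So did PPIG and NCL (r = 0.87, permutation p = 8e-05, adjusted p = 0.00024, rho = 0.79) and RBM25 and NCL (r = 0.79, permutation p = 0.00035, adjusted p = 0.0007, rho = 0.79). Without the 2 valves farthest from the median, r was 0.85, 0.76 and 0.76 for these 3 pairs. Of all tested genes, 0.023% deviated with PPIG at least as closely as RBM25 did, and 0.081% at least as closely as NCL did. With RBM25, 0.21% deviated at least as closely as NCL did. Each share counts the partner gene itself, and the shares for NCL also count RBM25 or PPIG.

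ESF1 followed the others less closely after TMM normalization. Its correlation was 0.57 with PPIG (permutation p = 0.078, adjusted p = 0.11), 0.51 with NCL (permutation p = 0.095, adjusted p = 0.11) and 0.41 with RBM25 (permutation p = 0.19, adjusted p = 0.19), and the respective rho was 0.29, 0.25 and 0.09. Those with PPIG and NCL rested on serotonin replicates 2 and 3, without which r was 0.0011 and -0.07. Serotonin replicate 2 was the highest and serotonin replicate 3 the lowest valve of its group for all 4 genes, with ESF1 0.37 above and 0.33 below its group mean on the log2 scale. With total counts, a scale on which the median tested gene had r = 0.62 to 0.69 with each of the 4 against about 0 with TMM (-0.0049 to 0.02), the correlations of ESF1 were 0.87 to 0.90 and those among the other 3 genes 0.93 to 0.98. Without non-treated replicate 3 and dexfenfluramine replicate 3, the correlations of PPIG with RBM25, NCL and ESF1 were 0.91, 0.88 and 0.59.

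**Figure D3:**
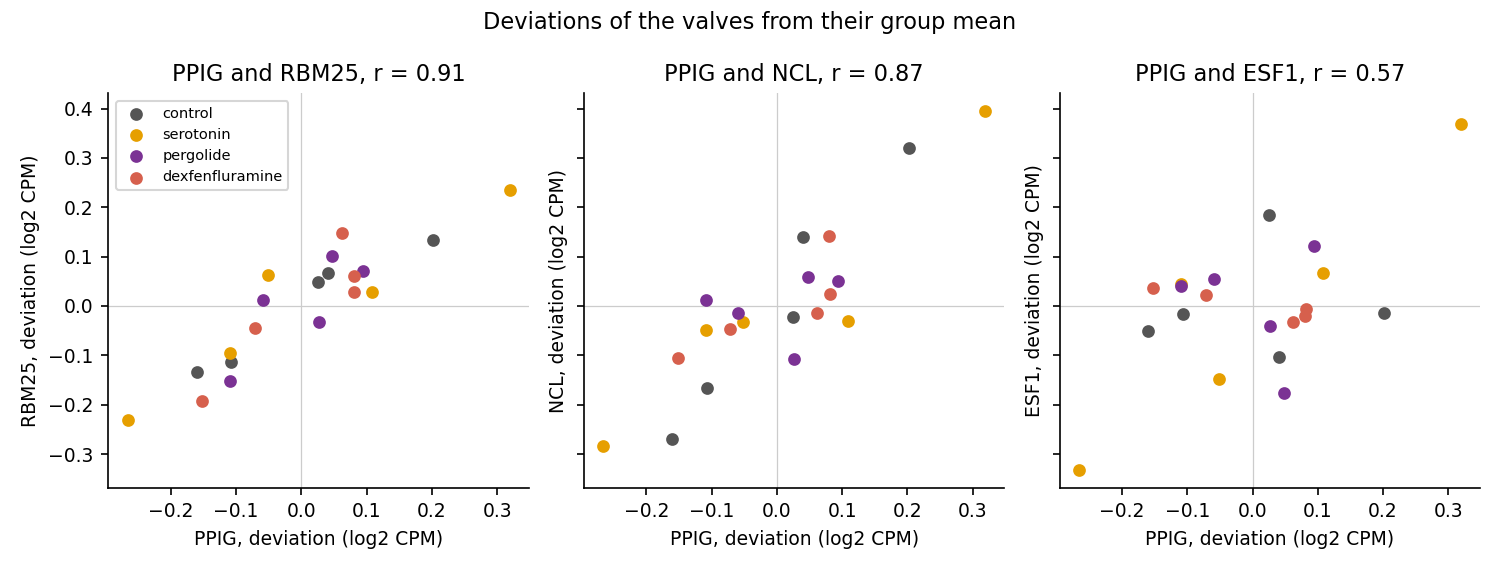
Deviation of each of the 20 valves from its group mean in log2 CPM, for PPIG (horizontal axes) against RBM25, NCL and ESF1 (vertical axes), coloured by group. Valves line up for RBM25 (r = 0.91) and NCL (r = 0.87), while for ESF1 (r = 0.57) the relation rests on the serotonin valve at the top right and the one at the bottom left.

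The same deviations were set against measures of the libraries, namely the share of the most abundant gene, the TMM factor, the total count and the summed CPM of cardiomyocyte and of valvular interstitial cell markers. Of these 20 relations none passed (permutation tests, adjusted p = 0.95 to 0.98). The closest was that of NCL with the TMM factor (r = -0.49, permutation p = 0.098, adjusted p = 0.95).

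Genes whose levels ran most like these 4 over all 20 valves were then sought among 3408 genes with a symbol. These correlations include the differences between groups and are a description. PPIG was most like NSRP1, PNISR, BOD1L1, LUC7L3 and TET1 (all r = 0.98). RBM25 was most like PNISR (r = 0.98), RSF1, PNN, PRRC2C and IK (all r = 0.97). ESF1 was most like PRRC2C (r = 0.97), ROCK1, CWF19L2, MORF4L1 and PARG (all r = 0.96), and NCL was most like LUC7L3, MFAP1 and DDX46 (all r = 0.99), MPHOSPH10 and EIF5B (both r = 0.98). The median gene had an r between -0.06 and -0.05 with each of the 4, and 145 to 217 genes had an r above 0.9.

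Of the 17 genes so named, NSRP1 is a splicing regulator of nuclear speckles, PNN (pinin) and PNISR are proteins of the speckles, DDX46 is a helicase of the U2 snRNP, and IK and MFAP1 are spliceosome components. LUC7L3, the U1-associated partner of RBM25, was the nearest gene to NCL and the fourth nearest to PPIG. Its mean was 395 ± 65.9 CPM in non-treated and 550.4 ± 107 CPM in serotonin-treated valves, and 240.3 ± 12.6 CPM after pergolide and 239 ± 24.0 CPM after dexfenfluramine (SD, n = 5). MPHOSPH10 is a component of the small-subunit processome, the particle in which the small ribosomal subunit is first assembled. EIF5B is a translation initiation factor, and TET1, RSF1, MORF4L1 and BOD1L1 act on DNA or chromatin. All 17 had a positive log2 change after serotonin and negative ones after both drugs with TMM, which follows from their choice by likeness to the 4 genes. Their values lay between 0.27 ± 0.09 (ROCK1) and 0.88 ± 0.19 (NSRP1) after serotonin. After pergolide they lay between -0.98 ± 0.18 (MFAP1) and -0.32 ± 0.07 (PRRC2C), and after dexfenfluramine between -0.99 ± 0.18 (MFAP1) and -0.29 ± 0.08 (TET1). Among the 4 genes themselves r over the 20 valves was 0.93 to 0.99, with PPIG and RBM25 the closest pair.

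**Figure D4:**
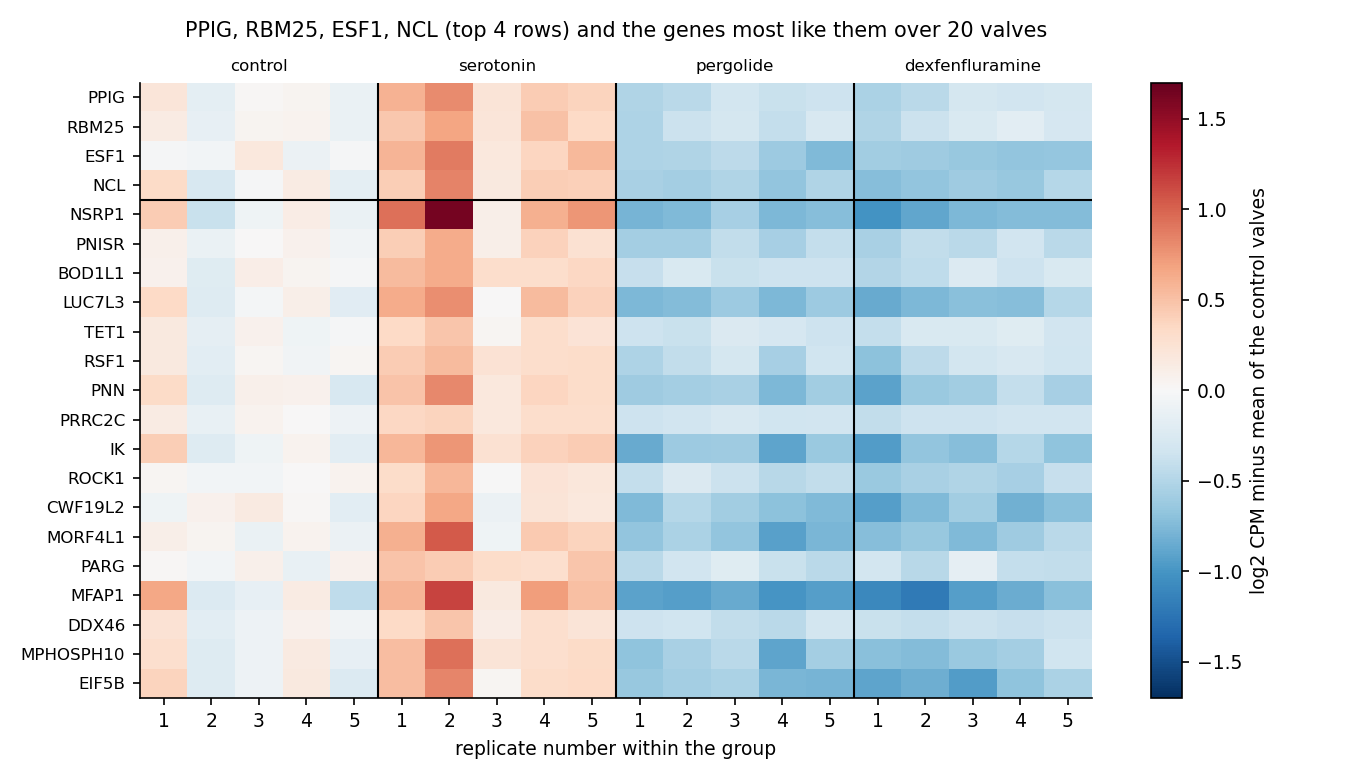
Log2 CPM after TMM normalization minus the mean of the non-treated valves (colour scale) for PPIG, RBM25, ESF1, NCL and the 17 genes most like them (rows) in replicates 1 to 5 of each group (columns). Drug columns are blue in all rows and serotonin columns mostly red. The lowest serotonin valve was just under the non-treated mean for CWF19L2 (-0.097), MORF4L1 (-0.075) and ROCK1 (-0.0041). Serotonin replicate 3 is the palest of its group, and NSRP1 and MFAP1 have the widest ranges.

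Other genes of the same pathways were read from lists of splicing, nucleolar and ribosome assembly genes. Symbols were available for 39.7% of the tested genes, those that the study had listed as differentially expressed in these valves, so a list here is not independent evidence of its direction and is read beside the 3444 remaining genes that had one. Of those 3444, 1.39% were called higher and 0.145% lower after serotonin. After pergolide 28.1% were called higher and 28.6% lower, and after dexfenfluramine 31.8% were called higher and 34.3% lower. The lists held 218 genes, of which 73 had a symbol and could be read. Of these 73, 3 were called higher and 0 lower after serotonin (edgeR, with 1372 of all genes at an unadjusted p under 0.05), 14 higher and 43 lower after pergolide, and 15 higher and 47 lower after dexfenfluramine. With total counts at most 1 gene of any list was called lower after either drug, so the lower calls hold relative to the bulk of genes and not relative to the total count. On that scale 87 of all 8683 tested genes were called lower and 2288 higher after pergolide, and 118 lower and 4983 higher after dexfenfluramine. The total-count numbers of each list below are read beside these.

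Among SR proteins and their relatives, 0 of 17 (36 listed) were called after serotonin, and with TMM 10 were called lower and 3 higher after pergolide and 12 lower and 4 higher after dexfenfluramine. With total counts those numbers turned to 1 lower and 5 higher after pergolide and 1 lower and 6 higher after dexfenfluramine. Most calls over all genes were also higher on that scale, as given above. The median log2 change was 0.07 after serotonin, -0.33 after pergolide and -0.32 after dexfenfluramine, against 0.01, 0.02 and 0.03 for all genes. THRAP3, a splicing and messenger RNA decay factor, had the lowest values, with -1.15 ± 0.16 under pergolide (edgeR adjusted p = 3.7e-05), -1.30 ± 0.16 under dexfenfluramine (adjusted p = 1e-05) and 0.09 ± 0.15 after serotonin (adjusted p = 0.82). BCLAF1, which is related to THRAP3 in sequence, fell by 0.65 ± 0.06 after pergolide (adjusted p = 6.6e-07). SREK1 and PNN came close to the pattern of PPIG and RBM25, with log2 changes after serotonin of 0.36 ± 0.10 (adjusted p = 0.060) and 0.43 ± 0.12 (adjusted p = 0.080) and falls of 0.75 ± 0.10 and 0.63 ± 0.12 after pergolide. SRRM1, a speckle protein that couples splicing to messenger RNA 3' ends, had smaller values of 0.16, -0.19 and -0.21 after serotonin, pergolide and dexfenfluramine.

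The U1 snRNP, the Sm proteins and their partners gave 0 of 8 calls (25 genes listed) after serotonin, 5 lower and 3 higher after pergolide and 5 lower and 2 higher after dexfenfluramine with TMM, and 0 lower and 3 higher after each drug with total counts. LUC7L3 had a log2 change of 0.48 ± 0.13 after serotonin (edgeR adjusted p = 0.058), and it fell by 0.71 ± 0.13 under pergolide (adjusted p = 0.00039) and by 0.72 ± 0.13 under dexfenfluramine (adjusted p = 0.00033). SNRPF, an Sm protein, was at 15.9 ± 2.69 CPM in non-treated and 25.8 ± 6.98 CPM in serotonin-treated valves (log2 change 0.70 ± 0.18, adjusted p = 0.054), and at 9.03 ± 1.35 and 9.16 ± 1.95 CPM after pergolide and dexfenfluramine (SD, n = 5). TIA1, which helps to recruit the U1 snRNP to weak splice sites, moved the other way, with rises of 0.65 ± 0.11 under pergolide (adjusted p = 0.00018) and 0.62 ± 0.11 under dexfenfluramine (adjusted p = 0.00024).

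Cyclophilins other than PPIG were called in both directions after the drugs, and 9 of the 16 listed could be read. After serotonin 8 of the 9 had a positive log2 change and 1 a negative one, with a median of 0.13 against 0.01 for all genes. Their median was 0.34 after pergolide and 0.11 after dexfenfluramine, against 0.02 and 0.03 for all genes, where PPIG was at -0.41 and -0.39. With TMM, 4 of 9 were called lower and 2 higher after pergolide, and 3 lower and 4 higher after dexfenfluramine, and with total counts 0 were lower and 4 and 6 were higher. The higher calls after dexfenfluramine were 2 to 4 on leaving out 1 valve and 0 to 4 in the alternatives set beforehand. NKTR, the other cyclophilin with an arginine- and serine-rich tail, was the only one called after serotonin, with a mean of 290 ± 31.4 CPM in non-treated and 373 ± 23.4 CPM in serotonin-treated valves (log2 change 0.36 ± 0.08, edgeR adjusted p = 0.035). Under the drugs NKTR fell by 0.25 ± 0.08 after pergolide (adjusted p = 0.026) and was at -0.10 ± 0.08 after dexfenfluramine (adjusted p = 0.37). PPIB, the cyclophilin of the endoplasmic reticulum, fell by 0.64 ± 0.14 and 0.73 ± 0.15 after the drugs, CWC27, a spliceosomal cyclophilin, fell by 0.69 ± 0.14 and 0.66 ± 0.14, and RANBP2 of the nuclear pore fell by 0.38 ± 0.07 and 0.39 ± 0.07, all with log2 changes after serotonin that did not pass (0.19, 0.13 and 0.02). PPIA (cyclophilin A), the cytosolic cyclophilin with many processed pseudogenes in mammals, had the largest change of the list after pergolide and was named after its values were seen. With TMM it rose by 1.17 after pergolide and by 1.04 after dexfenfluramine on the log2 scale, with 0.13 after serotonin, which did not pass.

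Nucleolar snoRNP and phosphoproteins, the class of NCL, had negative log2 changes in all 5 genes with a symbol (20 listed) after both drugs with TMM, and after serotonin 3 were positive and 2 negative. Of the 5 genes 3 were called lower after pergolide and 5 after dexfenfluramine, none of them with total counts, and 0 were called after serotonin. Leaving out 1 valve gave 3 to 5 lower calls after dexfenfluramine. GAR1, a protein of the box H/ACA snoRNPs, was at 10.3 ± 1.03 CPM in non-treated valves and at 4.81 ± 0.82 and 5.56 ± 1.83 CPM after pergolide and dexfenfluramine (SD, n = 5), with edgeR adjusted p = 0.00074 and 0.0030. GNL3 (nucleostemin) had log2 changes of -0.29 ± 0.09 and -0.40 ± 0.09 after the drugs, and NOP2, a ribosomal RNA methyltransferase, had -0.25 ± 0.12 (adjusted p = 0.15) and -0.37 ± 0.12 (adjusted p = 0.029). Both were on the lower side after serotonin (-0.15 and -0.23), unlike NCL, and did not pass there. Of the 4 snoRNAs known in the introns of NCL, 0 had a symbol, and they were not analysed here.

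In the small-subunit processome and 40S assembly, the class of ESF1, 0 of 17 genes (51 listed) were called after serotonin, and with TMM 11 were called lower and 3 higher after pergolide and 11 lower and 2 higher after dexfenfluramine. With total counts 0 were lower and 3 higher after each drug. MPHOSPH10 came closest to ESF1, with log2 changes of 0.48 ± 0.13 after serotonin (edgeR adjusted p = 0.073), -0.64 ± 0.14 under pergolide (adjusted p = 0.0017) and -0.60 ± 0.14 under dexfenfluramine (adjusted p = 0.0024). AATF and RIOK1, a kinase of late 40S maturation, fell by 0.80 ± 0.12 and 0.79 ± 0.13 after pergolide with 0.14 ± 0.11 and 0.23 ± 0.13 after serotonin. ABT1, a nucleolar factor of early small-subunit assembly, was at 9.38 ± 1.495 CPM in non-treated, 6.35 ± 1.03 CPM in serotonin-treated and 5.63 ± 0.53 CPM in pergolide-treated valves (SD, n = 5), with a log2 change of -0.56 ± 0.15 after serotonin (adjusted p = 0.062) where ESF1 was higher. WDR36 rose by 0.57 ± 0.10 after pergolide and by 0.65 ± 0.10 after dexfenfluramine.

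Assembly of the 60S subunit gave 1 of 12 genes (48 listed) called higher after serotonin, 9 lower and 2 higher after pergolide and 8 lower and 2 higher after dexfenfluramine with TMM, and at most 1 lower and 3 higher after each drug with total counts. Leaving out 1 valve gave 1 to 3 higher calls after pergolide and 0 to 2 after dexfenfluramine. The gene called after serotonin was RSL24D1, a factor of the pre-60S particle, at 83.1 ± 4.61 CPM in non-treated and 117 ± 13.7 CPM in serotonin-treated valves (log2 change 0.49 ± 0.11, edgeR adjusted p = 0.031), and it fell by 0.90 ± 0.11 after pergolide and by 0.74 ± 0.11 after dexfenfluramine. RPF1 rose by 0.59 ± 0.16 under pergolide (adjusted p = 0.011) and by 0.47 ± 0.16 under dexfenfluramine (adjusted p = 0.033), and was at 0.60 ± 0.17 after serotonin, which did not pass (adjusted p = 0.073). For transcription by RNA polymerase I, the step at which NCL is also known to act, 1 of 5 genes (18 listed) was called higher after serotonin, and with TMM 1 was called lower and 1 higher after pergolide and 3 lower and 1 higher after dexfenfluramine. With total counts 0 were lower after either drug, and 1 was higher after pergolide and 2 after dexfenfluramine. TAF1D, a subunit of the promoter selectivity factor, was at 68.8 ± 11.8 CPM in non-treated and 99.2 ± 13.1 CPM in serotonin-treated valves (log2 change 0.54 ± 0.12, adjusted p = 0.038) and fell by 0.73 ± 0.12 and 0.62 ± 0.12 after the drugs. The 3 lower calls after dexfenfluramine became 1 without non-treated replicate 1, 4 or 5, without dexfenfluramine replicate 3, without both valves that stood apart, with no filter on low counts, or with svaseq. UBTF, the upstream binding factor, did not pass (0.30, -0.25 and -0.12), and the polymerase subunit POLR1C rose by 0.93 ± 0.25 and 0.95 ± 0.25 after the drugs.

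NKTR, RSL24D1 and TAF1D were thus the 3 genes of these lists called after serotonin in this fit, each in the direction of PPIG, RBM25, ESF1 and NCL. All genes called after serotonin numbered 90 higher and 13 lower, and these numbers were 0 and 0 without non-treated replicate 2 or 5 or serotonin replicate 1. Over 23 alternative fits, no cyclophilin and hence not NKTR was called higher in 15, no 60S gene and hence not RSL24D1 in 13, and no polymerase I gene and hence not TAF1D in 14.

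Calls of 0 after serotonin held in most but not all of those fits. Of the SR proteins and relatives, 3 were called higher without non-treated replicate 1 and 1 without serotonin replicate 3. Of the U1 list 2 were called higher without either of these valves, and of the 40S list 2 without non-treated replicate 1. With both valves that stood apart left out, 1 gene of the SR list and 1 of the U1 list were called higher, and with DESeq2 these were 1 and 2, with 1 of the 40S list. The RUVr-type factor gave 3, 2 and 1 higher calls in the same order, and svaseq gave 1, 0 and 1.

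After the drugs, svaseq in limma-voom gave fewer lower calls in these lists than edgeR without surrogate variables, except for polymerase I after pergolide (1 in both). Both fits used TMM. With it, 7 SR proteins and relatives were called lower after each drug, 1 gene of the U1 list after each, and 3 and 2 cyclophilins after pergolide and dexfenfluramine. Of the nucleolar proteins 1 and 2 were called lower, of the 40S list 6 and 5, of the 60S list 5 and 5, and of the polymerase I list 1 and 1. The number of U1 genes called higher after dexfenfluramine, 2 with edgeR and TMM as given above, was 1 in 14 of the 23 alternative fits.

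**Figure D5:**
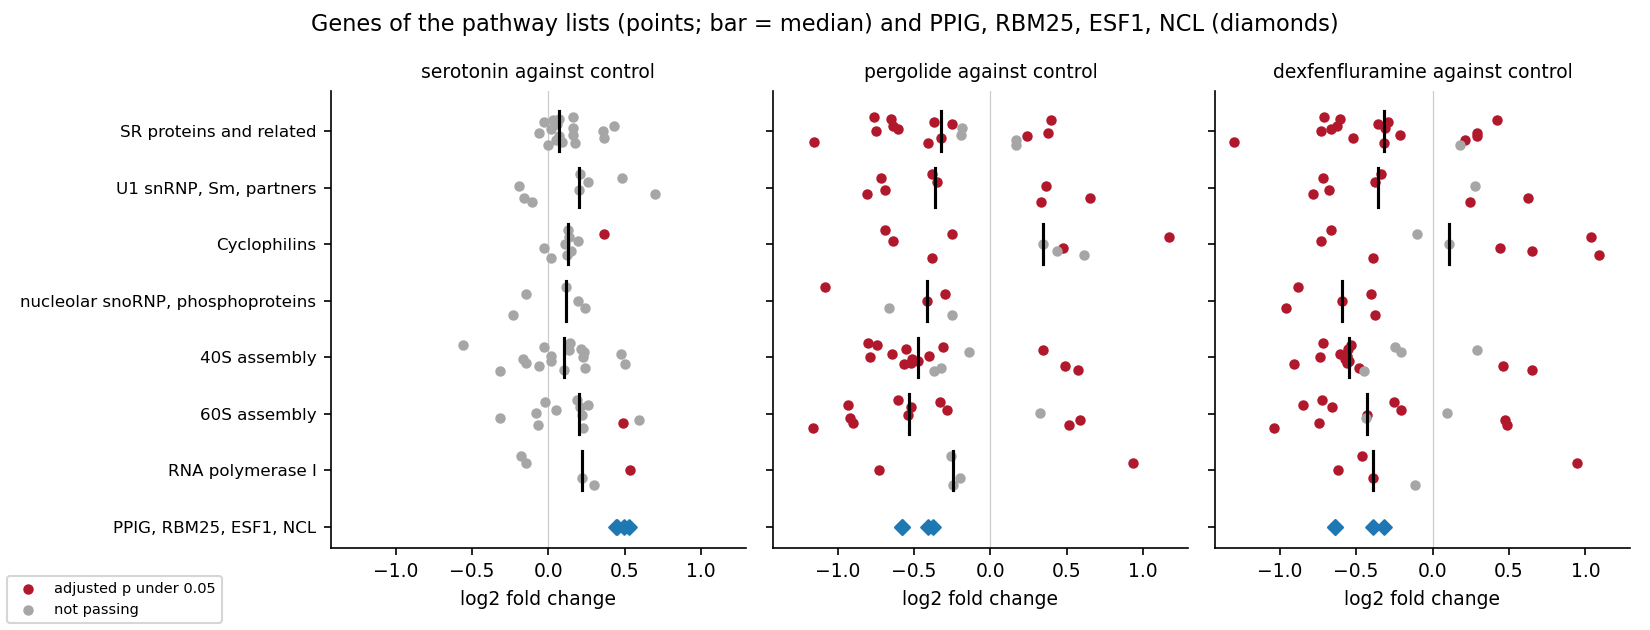
Log2 fold change against non-treated valves after TMM normalization (horizontal axes) for the genes of 7 pathway lists and, in the bottom row, PPIG, RBM25, ESF1 and NCL as diamonds. Points are genes, coloured by whether they passed an adjusted p of 0.05, and bars are list medians. After serotonin 3 list genes passed, whereas after the drugs most list medians lie left of 0 on this scale and the cyclophilins are spread on both sides. With total counts at most 1 gene of any list was called lower, where 87 of all 8683 tested genes were called lower after pergolide and 118 after dexfenfluramine.

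Some markers of the cell types of the tissue were called between the groups too, mostly under the drugs. Only markers that the study had listed as differentially expressed had a symbol, so these are not unselected panels. Of the 3444 genes with a symbol besides the 4, 28.1% were called higher and 28.6% lower after pergolide. After dexfenfluramine 31.8% were called higher and 34.3% lower, and after serotonin 1.39% and 0.145%. The summed level of the 9 cardiomyocyte markers with a symbol, of 18 listed, had a median of 106766 CPM in non-treated valves (49452 to 151625), 63783 CPM after serotonin (53489 to 104443), 82309 CPM after pergolide (48057 to 92654) and 60548 CPM after dexfenfluramine (12482 to 71277). The 8 valvular interstitial cell markers, of 12 listed and collagens among them, summed to 5544 to 8028 CPM in non-treated, 6606 to 8417 CPM in serotonin-treated, 7798 to 11323 CPM in pergolide-treated and 8244 to 12042 CPM in dexfenfluramine-treated valves. Of these 8, edgeR called 6 higher after pergolide, 5 after dexfenfluramine and 1 after serotonin, and of the 9 cardiomyocyte markers it called 1 lower after pergolide, 4 after dexfenfluramine and 0 after serotonin. The 2 endothelial markers with a symbol, PECAM1 and EMCN of 11 listed, were both called lower after pergolide and 0 under the other treatments. Their sums were 135 to 322 CPM in non-treated and 259 to 336 CPM in serotonin-treated valves. After pergolide they were 117 to 216 CPM and after dexfenfluramine 170.4 to 264 CPM. The 4 adipocyte markers with a symbol, of 10 listed, were all called higher after pergolide (62.3 to 193 CPM against 24.1 to 75.6 CPM in non-treated valves). None of them was called after serotonin or dexfenfluramine. Of the 2 macrophage markers with a symbol, C1QA and C1QB of 11 listed, 1 was called higher after pergolide. Of the 3 smooth muscle markers with a symbol, of 8 listed, 1 was called higher after pergolide and 1 higher and 1 lower after dexfenfluramine. No marker with a symbol was at 0. The part of these differences in the levels of the 4 genes was not tested beyond the correlations within groups given above.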

How the data were processed

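RNA was sequenced from 5 tricuspid valves in each of 4 groups, 1 library a valve. The deposited counts are whole reads per Ensembl gene without normalization, made by the authors by depleting ribosomal RNA, preparing stranded libraries, trimming, aligning to oryCun2 with TopHat 2.1.1 and counting with HTSeq in union mode, and the strand setting and annotation release are not given in the sources used here. Symbols came from the supplementary list of differentially expressed genes, in which 563 identifiers with 1 zero too many were corrected and 276 shortened ones left out, and they paired 3513 genes.

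Counts were normalized by TMM and tested with edgeR 4.0.16 in R 4.3.3 in a single fit of the 20 valves, after filterByExpr, with Benjamini-Hochberg adjustment and a threshold of 0.05. Log2 CPM used a prior count of 2. The steps were tested on simulated data. PPIG, RBM25, ESF1 and NCL and the lists were chosen with earlier results of these data known. Named besides them were the 5 genes most correlated with each over the 20 valves (mean log2 CPM of at least 1), the 2 genes of smallest p-value per list and comparison, and 10 partners fixed by name, of which 4 had a symbol (NKTR, LUC7L3, SRRM1 and UBTF).

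Alternatives were RLE and upper-quartile normalization, the most abundant gene removed, no filter, a minimum of 10 counts per valve, DESeq2 1.42.0, limma-voom (limma 3.58.1), 4 svaseq surrogate variables (sva 3.50.0), 1 RUVr-type factor, a replicate block, only the 2 groups compared, each valve left out in turn and a prior count of 0.5. Total-count scaling, ratios between genes and the omission of 2 valves were added after the data had been seen. HTSFilter, which the authors used, was not available. Correlations were permuted in Python 3.11.15 with numpy 2.4.6 and pandas 2.3.3, scipy 1.17.1 was used for ranks, and plots were drawn with matplotlib 3.10.9. With 235 or more reads of each gene in every valve, the spread between rabbits that edgeR estimated over all groups limits the precision more than counting error. ESF1 after dexfenfluramine was an exception, with a coefficient of variation of only 2.06% on 263 to 339 reads. No 2 libraries of a group agreed within sampling noise.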

Additional observations from a re-analysis of the deposited data

Results flagged for a closer look

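ESF1 in non-treated replicate 3 was at 97.4 CPM, and the other 4 non-treated valves lay between 79.7 and 84.8 CPM, so that its gap to the next valve took 0.715 of the range of the group, just past the limit of Dixon's test for 5 samples. In 16 groups of valves examined this was the 1 valve that stood out, and chance marks about 1 group in 20. The same valve was in the middle of its group for PPIG (215 CPM), RBM25 (368 CPM) and NCL (357 CPM), and it is also 1 of the 2 valves with a TMM factor apart from its group. Without it, the log2 change of ESF1 was 0.58 after serotonin, -0.52 after pergolide and -0.59 after dexfenfluramine.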

How the results depend on the processing

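The log2 changes of PPIG, RBM25, ESF1 and NCL after serotonin kept their sign in every alternative run and lay between 0.34 and 0.61. Against the non-treated valves after the drugs they kept theirs in every fitted alternative except total counts. In means relative to the total count without the most abundant gene, with no fit, PPIG and RBM25 were also higher after dexfenfluramine than in non-treated valves. With svaseq in limma-voom, PPIG and NCL were at -0.29 and -0.36 after pergolide, ESF1 and NCL at -0.55 and -0.41 after dexfenfluramine, ESF1 and NCL at -0.88 and -0.85 between pergolide and serotonin and at -0.92 and -0.89 between dexfenfluramine and serotonin, and the difference of dexfenfluramine from pergolide for PPIG turned to -0.011. Leaving out each valve in turn took that last difference from -0.0037 to 0.059.

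With total counts the 4 genes, in the order PPIG, RBM25, ESF1 and NCL, were at 0.042, 0.072, -0.17 and -0.12 after pergolide and at 0.30, 0.36, 0.0082 and 0.058 after dexfenfluramine. Against serotonin they were at -0.57, -0.48, -0.78 and -0.69 for pergolide and at -0.31, -0.19, -0.60 and -0.51 for dexfenfluramine. Between the drugs PPIG and RBM25 were at 0.26 and 0.29, and ESF1 and NCL turned to 0.18 and 0.17. This scaling moves all genes together, with a median gene 0.46 higher after pergolide and 0.70 higher after dexfenfluramine, and its calls were 2 higher and 0 lower after serotonin, 2288 and 87 after pergolide, 4983 and 118 after dexfenfluramine, 232 lower for pergolide against serotonin, and 3649 higher and 204 lower for dexfenfluramine against serotonin.

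Genes called after serotonin (90 higher, 13 lower) depended most on the processing. The higher calls were 44 with RLE size factors, 55 with upper-quartile normalization, 28 with the most abundant gene removed, 40 without a filter, 42 with at least 10 counts in every valve, 182 with DESeq2, 305 with 1 RUVr-type factor, 0 with only the 2 groups compared and 249 without both valves that stood apart. Lower calls were 8 without a filter, 52 with DESeq2, 233 with the RUVr-type factor, 0 with only the 2 groups and 232 without both valves. Leaving out 1 valve gave 0 to 171 higher and 0 to 86 lower calls, the most without non-treated replicate 3 and none without non-treated replicate 2 or 5 or serotonin replicate 1. With svaseq the higher and lower calls were 543 and 613 after pergolide, 452 and 535 after dexfenfluramine, 602 higher for pergolide against serotonin, and 546 and 835 for dexfenfluramine against serotonin. Between the drugs DESeq2 called 3 higher and 1 lower and the RUVr-type factor 16 and 99. The cause of these shifts was not tested.

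The replicate number as a block left 1 higher and 0 lower calls after serotonin and none among the 4 genes. Of 30 pairs of valves with one number, 6 had deviations correlated above 0.1 and 2 correlated best with their own number (median r = -0.02). These 2 were dexfenfluramine replicate 3 with non-treated replicate 3 (r = 0.49) and with serotonin replicate 3 (r = 0.19). Dexfenfluramine replicate 3 and non-treated replicate 3 are also the valves that stood apart. The numbers thus gave no general pairing of the samples, and whether the valves numbered 3 shared a step of processing was not tested.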
